A study of Homo sapiens with 3 samples.

Results

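The genes described here are 10 genes of the circadian clock, chosen by name: the activators BMAL1 and CLOCK, the repressors PER1, PER2, PER3, CRY1 and CRY2, the nuclear receptors NR1D1 and NR1D2, and the output factor DBP. All 10 were found among the 19699 genes that the array probes could be named for, and 14 probes represented them. Total RNA of PANC-1 cells, an established line from a human pancreatic ductal carcinoma, was measured on Agilent 1-colour expression arrays. The groups were control cells, cells given 20 µM cantharidin (CAN) and cells given 20 µM okadaic acid (OA), each exposure lasting 24 h. Both compounds inhibit serine/threonine phosphatases of the PP2A class; cantharidin is a small molecule from blister beetles and OA is a polyether toxin of marine dinoflagellates. What the control cells received in place of the compounds was not given, and the treatment description can be read as giving a dose for cantharidin only, so the OA dose rests on the sample label.

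With 1 array in each group, the differences carry no check against replicates, and conditions could not be tested against each other. The cells were sampled at a single time and were not described as synchronised, so a change in level and a shift in the phase of an oscillation cannot be told apart. In bulk RNA, fewer cells expressing a gene and less RNA per cell cannot be told apart either. The 3 arrays came from 1 slide and 1 scan. Of 34041 probes, 24768 were flagged by the scanner software as well above background in control, 25103 under CAN and 23071 under OA. The 7 listed markers of the line (KRT7, KRT8, KRT18, KRT19, EPCAM, VIM and SOX9) were all well above background on the 3 arrays. Among markers of other cells, the acinar gene CPA1 and the main probe of the endothelial gene PECAM1 were never well above it, while the main probes of PRSS1, CELA3A, CDH5, PTPRC and CD3E gave between 80.6 and 460 intensity units. Markers moved with treatment: under CAN and OA, SOX9 was 7.55-fold and 3.38-fold lower and EPCAM 3.42-fold and 2.20-fold lower, while KRT18 was 1.99-fold and 2.29-fold higher. The main probe of KRT8 was 2.25-fold lower under CAN. Under OA, KRT19 was 2.59-fold higher, KRT7 1.67-fold lower and VIM 1.57-fold lower. On these probes, each of KRT8, KRT19, KRT7 and VIM was within 1.5-fold under the other compound. PRSS1 was 2.49-fold higher under CAN, and 1 of 4 probes of PTPRC was at least 5.63-fold higher under CAN and at least 3.15-fold higher under OA, while its main probe stayed within 1.5-fold. The part of these shifts in the results below was not tested.

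As background, the clock is a feedback loop of transcription. BMAL1 and CLOCK bind as a pair to E-box DNA and switch on the PER and CRY genes, whose proteins return to the nucleus and block the pair. The same pair drives NR1D1 and NR1D2 (REV-ERBα and REV-ERBβ), which repress BMAL1 against the ROR receptors, and DBP, which binds D-box DNA in clock-controlled genes. Casein kinase 1 phosphorylates PER proteins and phosphatases act against it, so that the timing of the loop depends on protein phosphorylation. The loop runs in most cells of the body, pancreas included.

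The promoters of 4 of the genes are shown because each has a single promoter in the RefSeq table used and each holds an E-box or its E′-box variant. All 4 lie on the minus strand, and the 250 bases before the transcription start are written 5′ to 3′ on the gene's strand, from RefSeq on GRCh38.p14. They span chr17:8152405-8152654 for PER1, chr2:238288611-238288860 for PER2, chr12:107093550-107093799 for CRY1 and chr17:40100590-40100839 for NR1D1. Capitals mark CACGTG (the E-box) or CACGTT (the E′-box, read AACGTG on the opposite strand) and, in PER1, TGACCT, the reverse complement of the nuclear receptor motif AGGTCA.
PER1: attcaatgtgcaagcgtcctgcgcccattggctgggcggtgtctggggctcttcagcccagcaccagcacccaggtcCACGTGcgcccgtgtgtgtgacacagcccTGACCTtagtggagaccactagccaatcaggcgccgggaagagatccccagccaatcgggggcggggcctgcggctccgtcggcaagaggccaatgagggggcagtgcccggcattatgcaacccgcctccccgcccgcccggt
PER2: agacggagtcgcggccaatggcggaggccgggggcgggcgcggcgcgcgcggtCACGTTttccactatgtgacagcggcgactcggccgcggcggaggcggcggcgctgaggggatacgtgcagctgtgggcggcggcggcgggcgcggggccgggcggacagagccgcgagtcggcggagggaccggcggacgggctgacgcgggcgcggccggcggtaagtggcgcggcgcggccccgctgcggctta
CRY1: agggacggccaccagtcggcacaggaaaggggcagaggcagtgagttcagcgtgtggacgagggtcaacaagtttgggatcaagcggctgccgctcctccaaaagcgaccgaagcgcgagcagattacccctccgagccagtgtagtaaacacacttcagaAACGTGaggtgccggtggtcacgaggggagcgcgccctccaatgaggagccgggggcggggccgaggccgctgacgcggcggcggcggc
NR1D1: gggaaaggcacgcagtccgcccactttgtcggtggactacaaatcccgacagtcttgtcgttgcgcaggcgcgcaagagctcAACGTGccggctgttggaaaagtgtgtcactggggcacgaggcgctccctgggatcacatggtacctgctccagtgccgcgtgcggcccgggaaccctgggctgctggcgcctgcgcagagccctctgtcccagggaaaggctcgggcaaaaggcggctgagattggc

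Counted from the start site, the E-box of PER1 lies at −173 to −168, and the E′-boxes lie at −197 to −192 in PER2, −89 to −84 in CRY1 and −168 to −163 in NR1D1. The motifs were searched on both strands from 250 bases before to 50 bases after each start, in 35116 promoters of all genes and in the 15 promoters of the 10 clock genes. CACGTG occurred in 7.26% of all promoters and in 2 of the 15, those of PER1 and NR1D2. CACGTT occurred in 5.34% of all promoters and in 5 of the 15, those of CLOCK, CRY1, CRY2, NR1D1 and PER2. The D-box, taken as TTATGTAA or TTACGTAA, occurred in 1.01% of all promoters and in 3 of the 15, those of NR1D2, PER2 and PER3. AGGTCA occurred in 13.8% of all promoters and in 4 of the 15, which belong to BMAL1, CRY2 and PER1. The cyclic AMP element TGACGTCA occurred in 1.85% of all promoters and in none of the 15. Each match describes letters in these windows and not a bound site, and the single DBP promoter held none of the searched motifs.

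The clock genes moved in both directions under both compounds. CRY1 and 1 of 2 probes each of PER2 and CLOCK rose under each compound. PER1, NR1D1, NR1D2 and DBP fell under each, and CRY2 rose under CAN with its OA difference inside 1.5-fold. BMAL1 and the compared probe of PER3 stayed within 1.5-fold of control. Signals are given as intensity units of the scanner software after background subtraction, and each difference is on the log2 scale after each array was scaled to its own 75th percentile, which was 784 units for control, 713 for CAN and 936 for OA. A gene was called higher or lower at a difference of at least 1.5-fold. Its probe also had to stand well above background in at least 1 of the conditions compared, and "rose" and "fell" are used only for such calls. The ± after a difference is the error that the scanner software gives for the spots, carried to the difference. It covers the reading of a spot and not the variation between cultures.

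By this call, 4 of the 10 clock genes were higher under CAN than in control and 4 were lower, beside 27.5% and 34.1% of the 16644 genes compared. Under OA, 3 were higher and 4 were lower than in control, beside 28.1% and 28.8% of 16166 genes. Set directly against CAN, OA gave 3 higher and 5 lower, beside 29.5% and 22.3% of 16200 genes. With 10 genes, a single gene moves such a share far, and the counts are given as a description only. A gene with several probes was counted by the probe with the highest mean signal over the 3 arrays, called the brighter probe below. For PER2 and CLOCK that probe was the dimmer one in control and was chosen through its treated signals, so the choice leans towards a rise. With the dimmest compared probe of each gene, 2 clock genes were higher under CAN and 1 under OA. The median difference of the clock genes was 0.04 under CAN and −0.09 under OA, and that of all genes was −0.16 and 0.01. Between OA and CAN the medians were −0.43 for the clock genes and 0.13 for all genes. The clock genes spread from −5.63 to 4.27 under CAN and from −3.47 to 3.46 under OA, with DBP lowest and the chosen probe of PER2 highest in each case. Both comparisons with control use the same control array, so that a high or low spot there enters both.

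**Figure D1:**
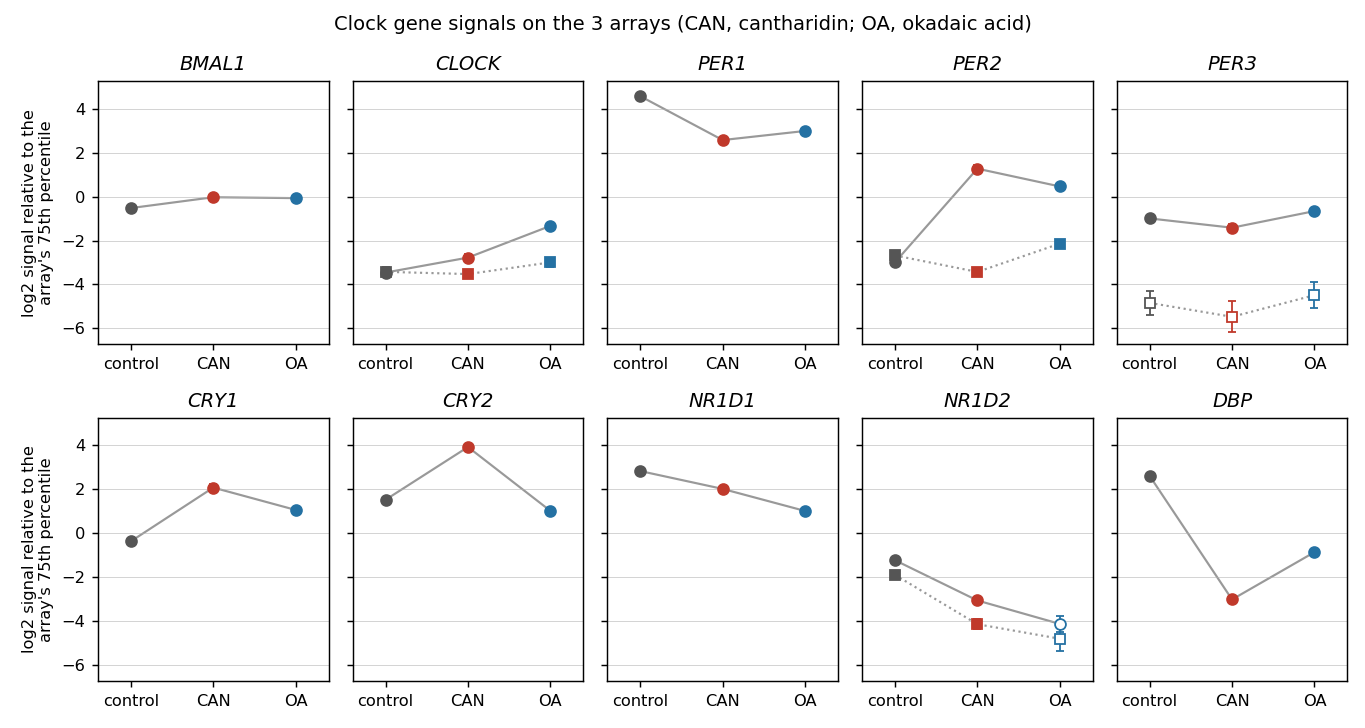
Signals of the 10 clock genes on the control, CAN and OA arrays, as log2 of the intensity relative to the array's 75th percentile. Circles are the brighter or only probe and squares a gene's other probe, open symbols mark signals not well above background, and bars are the spot error of the scanner software. DBP, PER1, NR1D1 and NR1D2 were highest on the control array, CRY2 was highest on the CAN array, and the probes of PER2 separated after treatment.

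Of the activators, BMAL1 (also called ARNTL), the partner shared by the CLOCK and NPAS2 pairs, changed little. Its signal was 546 units in control, 699 under CAN and 892 under OA. The difference from control was 0.49 ± 0.21 under CAN, or 1.41-fold, and 0.45 ± 0.21 under OA, or 1.37-fold. Neither difference passed the call, and the direct difference between OA and CAN was −0.04 ± 0.21. Without scaling between arrays, BMAL1 under OA passed the call at 0.71.

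CLOCK, the histone acetyltransferase subunit of the pair, had 2 probes that differed in their response. The brighter over the 3 arrays gave 71.4 units in control, 104 under CAN and 371 under OA. This probe rose by 0.68 ± 0.26 under CAN, or 1.60-fold, and by 2.12 ± 0.25 under OA, or 4.36-fold. The control signal was near the limit of measurement, at 2.04 times the lowest signal that was well above background on its array. CLOCK's other probe gave 73.1, 61.9 and 117 units, with differences of −0.10 ± 0.28 under CAN and 0.43 ± 0.29 under OA, within 1.5-fold in both. The CAN call on CLOCK was lost under 4 of 11 other ways of processing, including no scaling, whereas the OA call was lost only with the dimmer probe, at 0.43.

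The 3 PER genes, whose proteins carry the CRY proteins into the nucleus and are marked by casein kinase 1, each behaved differently. PER1 gave 18654 units in control, 4243 under CAN and 7428 under OA. It fell by 2.00 ± 0.20 on the log2 scale under CAN, 4.0-fold lower, and fell by 1.58 ± 0.20 under OA, 3.0-fold lower. The control array was the highest of the 3 for PER1, and the OA and CAN arrays were within 1.5-fold of each other at 0.41 ± 0.20. Over the 11 alternatives the PER1 differences kept their calls, from −2.14 to −1.90 under CAN and from −1.71 to −1.33 under OA. The alternatives on dim signals and probe choice could not change PER1, CRY1, CRY2, NR1D1 or DBP. Each of these genes has 1 probe, well above background on all 3 arrays. For them, only the scaling, the background correction and the source table could move a value.

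PER2 had 2 probes, and the one with the higher mean over the arrays, although the dimmer in control, gave 98.4 units in control, 1722 under CAN and 1290 under OA. The difference was 4.27 ± 0.23 under CAN, 19.3-fold higher, and 3.46 ± 0.24 under OA, 11-fold higher. Under CAN, 98.9% of all genes compared lay below it, and under OA 98.2% did. PER2's other probe carries the same transcript accession and gave 123 units in control, 66.2 under CAN and 212 under OA. It was 1.68-fold lower under CAN, at −0.75 ± 0.26, and within 1.5-fold under OA, at 0.54 ± 0.24. The probes of PER2 therefore went opposite ways under CAN, and the rise of PER2 rests on the probe that was chosen through its treated signals. In control both were close to the lowest measurable signal, at 2.81 and 3.50 times it, and the files used here do not give where on the transcript each probe lies. Between the compounds the probes also parted, with OA against CAN at −0.81 ± 0.20 on the brighter and 1.29 ± 0.25 on the dimmer.

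PER3, the PER gene least needed for rhythm in the mouse, stayed within 1.5-fold of control. Its brighter probe gave 394 units in control, 267 under CAN and 593 under OA, with differences of −0.42 ± 0.21 and 0.33 ± 0.21. Without scaling, PER3 under OA passed the call at 0.59. OA against CAN was 0.76 ± 0.21, 1.69-fold higher, a call that was lost with normexp background correction, at 0.56. PER3's other probe, at 27.4, 16.1 and 41.8 units, never stood well above background and was not compared.

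The cryptochromes, the direct repressors of the BMAL1 and CLOCK pair, differed most between the compounds in CRY2. CRY1 gave 609 units in control, 3016 under CAN and 1956 under OA. It rose by 2.45 ± 0.20 under CAN, 5.45-fold, and by 1.43 ± 0.20 under OA, 2.69-fold. The CRY1 calls held under the alternatives that could change them, from 2.31 to 2.52 under CAN and from 1.31 to 1.68 under OA. CRY2 gave 2258 units in control, 10847 under CAN and 1899 under OA. It rose by 2.40 ± 0.20 under CAN, 5.29-fold, while under OA the difference was −0.51 ± 0.20, or 1.42-fold lower and within the call. Set directly, the OA array was 7.51-fold below the CAN array for CRY2, at −2.91 ± 0.20, and 1.18% of all genes compared had a lower difference. The CRY2 difference between the arrays ranged from −3.06 to −2.51 over the 11 alternatives. Its OA difference passed the call only with each array scaled to its median, at −0.63. CRY1 too was lower under OA than under CAN, at −1.02 ± 0.20, and each cryptochrome had 1 probe of 1 spot.

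**Figure D2:**
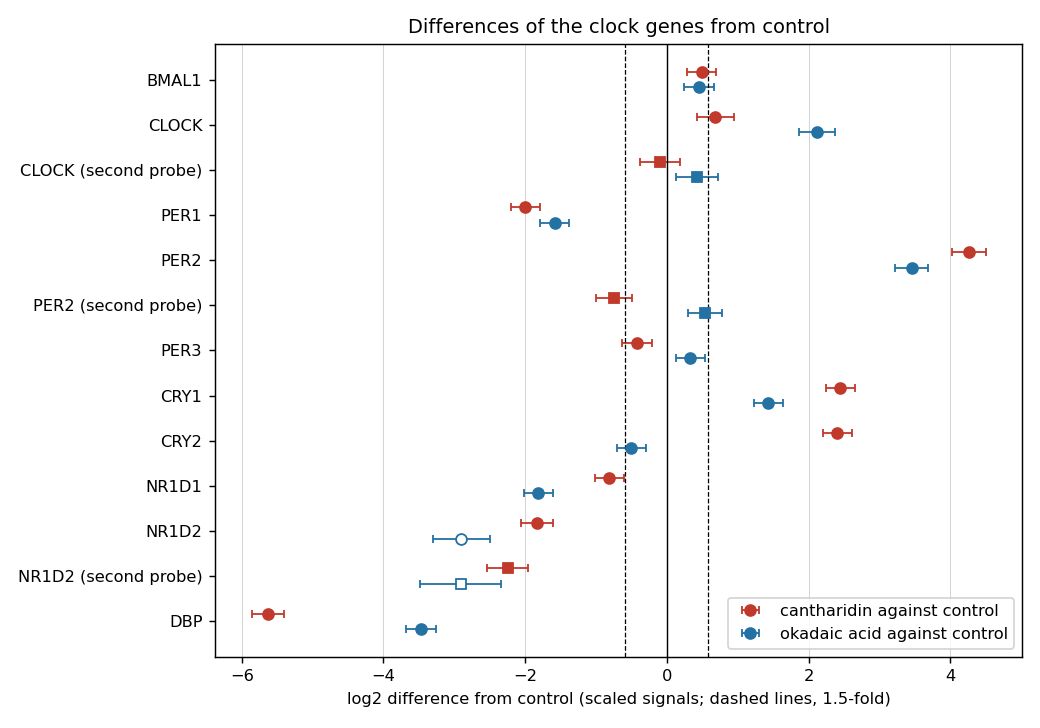
Log2 differences of the clock gene probes from control under CAN (red) and OA (blue) on scaled signals, with dashed lines at 1.5-fold, bars for the spot error and open symbols where the treated array was not well above background. CRY2 lies at 2.40 under CAN and −0.51 under OA, DBP lies at −5.63 and −3.47, and the squares show the other probes of CLOCK, PER2 and NR1D2.

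Both REV-ERB receptors, the heme-binding repressors of BMAL1, fell under both compounds. NR1D1 gave 5592 units in control, 2892 under CAN and 1894 under OA. It fell by 0.81 ± 0.20 under CAN, 1.76-fold lower, and fell by 1.82 ± 0.20 under OA, 3.52-fold lower. The NR1D1 signal was lowest under OA, at −1.0 ± 0.20 against CAN. Its calls against control held at 1.5-fold under the alternatives that could change them, while the CAN difference was short of 2-fold. NR1D2 gave 336 units in control, 85.6 under CAN and 53.7 under OA, where it was not well above background. It fell by 1.83 ± 0.23 under CAN, 3.56-fold lower, and was at least 6.90-fold lower under OA. Such a bound sets the brighter signal against the higher of the dim probe's own signal and the lowest signal well above background on that array. Over 10 alternatives the NR1D2 difference ran from −2.25 to −1.14 under CAN and from −3.62 to −1.64 under OA, smallest in each with normexp background correction, and kept its call. The dimmer probe of NR1D2 gave 211, 40.5 and 33.6 units and moved the same way, at −2.25 ± 0.29 under CAN, 4.75-fold lower, and at least 4.35-fold lower under OA. NR1D2 was thus the only clock gene with 2 compared probes whose calls against control matched on both.

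DBP, the D-box activator whose transcript is among the strongest cycling outputs of the clock in liver, had the lowest difference of the clock genes under each compound. Its signal was 4808 units in control, 88.3 under CAN and 517 under OA. It fell by 5.63 ± 0.23 under CAN, 49.5-fold lower, and fell by 3.47 ± 0.21 under OA, 11.1-fold lower. Of all genes compared, 0.0961% had a lower difference under CAN and 0.953% under OA. DBP was well above background on all 3 arrays, and OA left a signal 4.45-fold above that under CAN, at 2.16 ± 0.23. Over the 11 alternatives the difference ran from −5.92 to −4.51 under CAN and from −3.59 to −3.20 under OA, past 1.5-fold in each.

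Against each other, OA was higher than CAN for CLOCK (brighter probe, 1.44 ± 0.22), PER3 and DBP, and lower for PER2 (brighter probe), CRY1, CRY2, NR1D1 and NR1D2. NR1D2 was at least 1.94-fold lower under OA than under CAN, at −1.07 ± 0.41, a call that was lost with normexp background correction at −0.50. This comparison does not use the control array. Some of its calls moved with the scaling, since the OA array was the brightest at the 75th percentile: without scaling, PER1 passed the call at 0.81 and PER2 no longer did at −0.42.

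**Figure D3:**
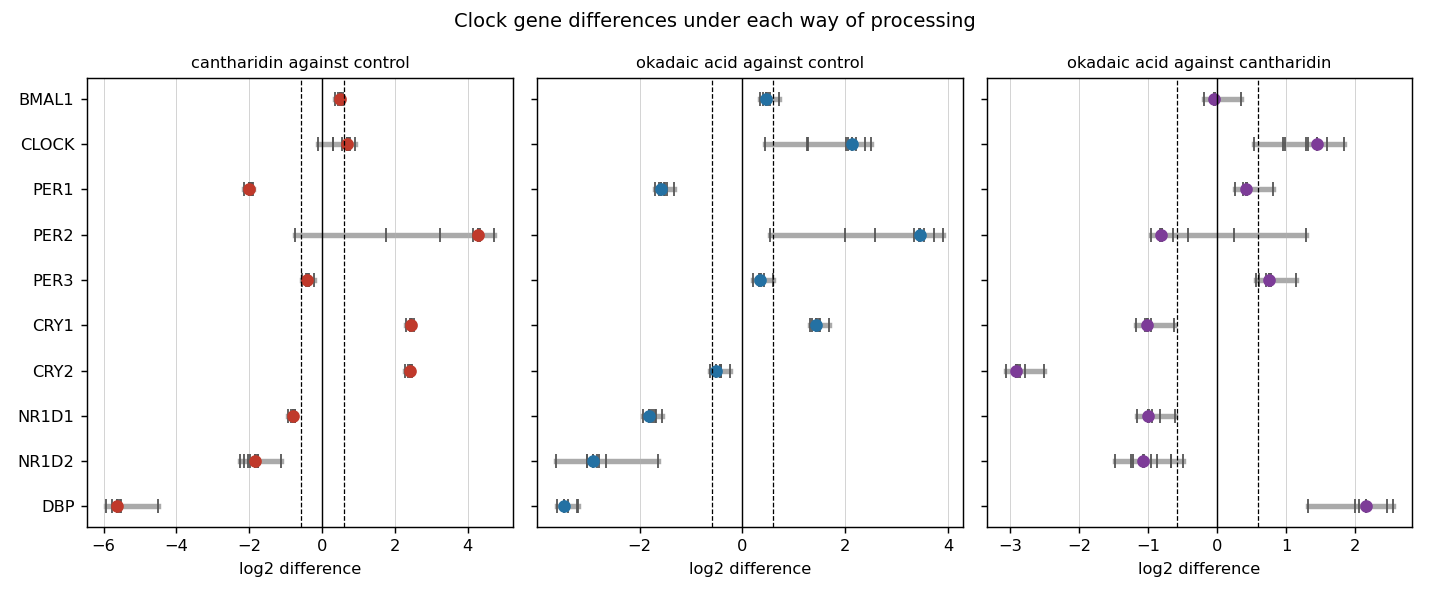
Log2 differences of the 10 clock genes in the 3 comparisons, with dots for the values given in the text, ticks for each alternative way of processing, grey bars for their range and dashed lines at 1.5-fold. The ranges were widest for PER2, from −0.75 to 4.70 under CAN, and stayed on 1 side of 1.5-fold against control for PER1, CRY1, NR1D1, NR1D2 and DBP. For PER1, CRY1, NR1D1 and DBP, with 1 probe each, the alternatives on dim signals and probe choice repeat the value in the text.

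Read against the promoter search above, clock genes with an E-box or E′-box in the window moved both ways. PER1 and NR1D2, with CACGTG, fell under both compounds. Of the genes with CACGTT, NR1D1 fell under both, while CRY1 and the brighter probes of PER2 and CLOCK rose under both. CRY2, also with CACGTT, rose under CAN and was within 1.5-fold under OA. DBP, with none of the motifs in its window, fell the furthest. Sites outside the window were not searched, and whether any motif bears on these differences was not tested. Of the other clock pathway genes, BHLHE40, BHLHE41, CIART, TEF and TIMELESS had CACGTG in a promoter, and their values are given below.

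The wider pathway was described from a list of 33 further genes, of which 32 had a probe and HLF never stood well above background. Under CAN, 10 of the 31 compared were higher and 7 were lower, with a median of 0.04. Under OA, 11 of 30 were higher and 10 were lower, with a median of −0.02. In the direct comparison 5 of 31 were higher under OA and 10 were lower, with a median of −0.13. With signals not well above background set to the lowest measurable one, the counts were 9 and 7 under CAN, 11 and 9 under OA, and 6 and 9 in the direct comparison. The shares of all genes given above are the background for these counts, and the rule for genes with several probes leans towards rises for CREM and CRTC1 as it does for PER2.

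Neither paralogue of the activators rose. NPAS2, which can replace CLOCK, was within 1.5-fold, at −0.23 ± 0.20 under CAN and the same under OA. BMAL2 gave 394 units in control, 530 under CAN and 233 under OA. It was 1.48-fold higher under CAN, short of a call that it passed under 3 of 11 alternatives, and fell 2.02-fold under OA, at −1.01 ± 0.22. Among the other repressors, BHLHE41 (DEC2), which competes for E-boxes, gave 154, 1248 and 1026 units and rose 8.94-fold under CAN and 5.59-fold under OA. BHLHE40 (DEC1) gave 8752, 7848 and 40114 units, at −0.02 ± 0.20 under CAN and 3.84-fold higher under OA. TIMELESS, better known in mammals for its work at the replication fork, gave 9394, 584 and 1338 units and fell 14.6-fold and 8.38-fold. CIART, a repressor of the BMAL1 and CLOCK pair, gave 68.0 units in control and 35.3 under CAN, 1.75-fold lower. Under OA it was at least 1.40-fold lower, from a signal not well above background, and both CIART calls were lost with normexp, at −0.27 and −0.38.

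RORA, a receptor that acts against the REV-ERBs at the same DNA, rose under both compounds. It gave 41.6 units in control, 295 under CAN and 323 under OA, 7.81-fold and 6.50-fold higher. The control signal was 1.19 times the lowest measurable one, and normexp lowered the log2 differences of RORA from 2.97 to 1.66 under CAN and from 2.70 to 1.40 under OA. RORB, its relative, stayed within 1.5-fold. Of the D-box factors, TEF, a relative of DBP, fell, from 141 units to 49.7 under CAN, 2.57-fold lower, and was at least 2.89-fold lower under OA. The CAN call of TEF was lost with normexp, at −0.53, and its OA difference moved from −2.46 to −0.96. NFIL3, the repressor at the same DNA element, gave 9870, 19100 and 13078 units and rose 2.13-fold under CAN, while the OA difference was 0.15 ± 0.20.

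**Figure D4:**
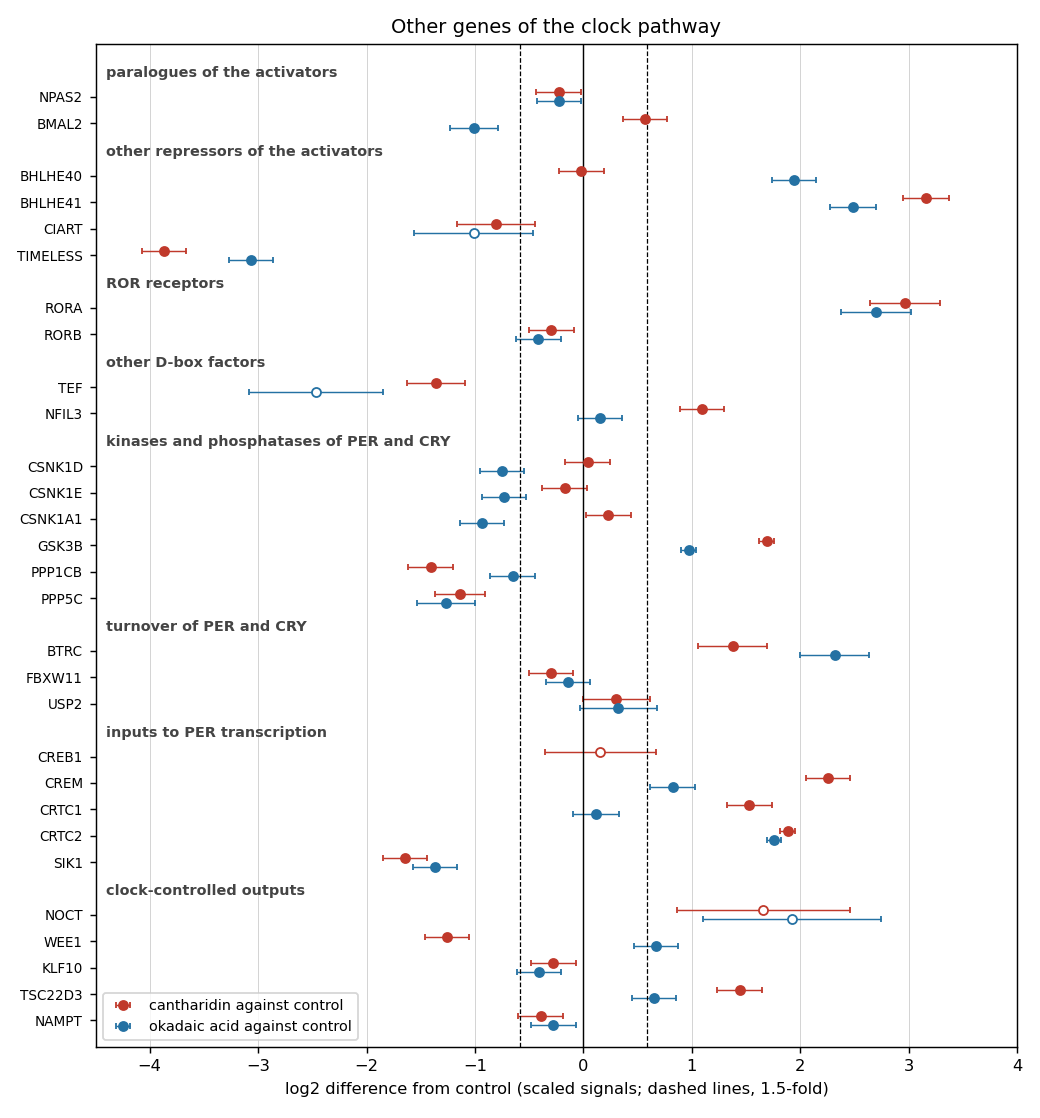
Log2 differences of other clock pathway genes from control under CAN (red) and OA (blue) on scaled signals, grouped by role, with bars for the spot error, dashed lines at 1.5-fold and open symbols where a signal was not well above background. RORA and BHLHE41 lie above 2 and TIMELESS below −3 under both compounds, while WEE1 and BMAL2 lie on opposite sides of 0.

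Among the kinases and phosphatases of PER and CRY proteins, 5 of 6 were lower under OA and 1 was higher, whereas under CAN 2 were lower and 1 was higher. Among all genes, 28.8% were lower and 28.1% higher under OA, and 34.1% and 27.5% under CAN. The casein kinases CSNK1D, CSNK1E and CSNK1A1 fell 1.69-fold, 1.66-fold and 1.91-fold under OA, and their differences under CAN were 0.04, −0.17 and 0.23. Without scaling, the OA calls of CSNK1D and CSNK1E were lost, at −0.498 and −0.478. GSK3B, read by at least 7 spots on each array, rose 3.23-fold under CAN and 1.96-fold under OA. The phosphatase genes PPP1CB and PPP5C fell, by 1.41 ± 0.20 and 1.14 ± 0.23 on the log2 scale under CAN and by 0.65 ± 0.20 and 1.27 ± 0.27 under OA. PPP1CB's other probe was within 1.5-fold under both, at −0.56 and −0.16, and the OA call of PPP1CB was lost under 4 of 11 alternatives. Of the genes for PER and CRY turnover, BTRC, a ubiquitin ligase subunit for PER, rose 2.59-fold under CAN and 4.98-fold under OA, from 46.8 units in control, 1.34 times the lowest measurable signal. With normexp the CAN call of BTRC was lost at 0.46, and the OA difference moved from 2.32 to 1.01. FBXW11, a close relative of BTRC, stayed within 1.5-fold.

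The inputs to PER transcription were mixed. The CREB coactivator CRTC2, read by at least 9 spots on each array, gave 3652, 12227 and 14721 units, 3.68-fold and 3.38-fold higher. SIK1, a kinase that holds such coactivators in the cytoplasm, fell 3.13-fold under CAN and 2.58-fold under OA. PER1, which CREB drives in other tissues, fell under both compounds as given above, and a link between PER1 and these inputs was not tested. Of the clock-controlled outputs, the cell cycle kinase gene WEE1 gave 3838 units in control, 1458 under CAN and 7272 under OA. It fell 2.39-fold under CAN and rose 1.59-fold under OA. The glucocorticoid target TSC22D3 rose 2.71-fold and 1.57-fold. The OA calls of WEE1 and TSC22D3 were lost with each array scaled to its median, at 0.55 and 0.53. NOCT, not well above background in control, was at least 1.80-fold higher under OA. Its CAN call was lost with dim signals set to the lowest measurable one, at 0.58, and with normexp both calls were lost, at 0.34 and 0.46. KLF10 and the brighter probe of NAMPT stayed within 1.5-fold.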

How the data were processed

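RNA of control, CAN-treated and OA-treated PANC-1 cells was hybridised to 3 Agilent 1-colour arrays, with 1 sample per group taken from the sample labels. The authors deposited the scanner output of Feature Extraction 11.0.1.1. Its intensity values, per the file headers, had the background subtracted and a spatial trend removed within the array, but no scaling from array to array. Another deposited file of normalized log2 values, whose making is not given in the sources used here, served as an alternative. Control spots and outlier spots were left out, log2 intensity was averaged over the spots of a probe, and the 75th percentile of its array was subtracted. Probes were named by transcript accession through the RefSeq table on GRCh38.p14, for names only, because the arrays were annotated on hg19. A gene was represented by its brightest probe by mean log2 signal over the 3 arrays, treated arrays included. A fold of 1.5 was used for calls, and conditions were not tested against each other.

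The genes and lists were chosen with earlier results of these data known. All clock genes are given with every probe, and other pathway genes are named where they passed the call, moved opposite ways or completed a functional group. Some genes of the pathway list entered its counts but are not reported here. Alternatives changed the scaling, the background correction, the filter on dim probes, the threshold, the probe choice and the source table. The changed threshold was applied to counts only, so the alternatives given for single genes all use 1.5-fold. Python 3.11.15 (numpy 2.4.6, pandas 2.3.3, matplotlib 3.10.9) and R 4.3.3 with limma 3.58.1 (normexp, offset 50) were used. The calling steps were checked on simulated arrays. The lowest signal well above background was 35.0 units on the control array, 21.9 on the CAN array and 58.0 on the OA array. Between 10 spots of 1 probe, the median SD of log2 intensity was 0.06, 0.09 and 0.07, and every clock gene probe had 1 spot. Array number limits the precision.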

Additional observations from a re-analysis of the deposited data

Results flagged for a closer look

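CRY2, BMAL2, CSNK1A1 and WEE1 are given here because the CAN and OA arrays lay on opposite sides of control, each by more than its spot error, at least 1.5-fold apart and with at least 1 of them past 1.5-fold. BHLHE40 and CSNK1D also had opposite signs, but their CAN differences, −0.02 and 0.04, were within the spot error. CRY2 differed from control by 2.40 under CAN and by −0.51 under OA on the log2 scale. BMAL2, the paralogue of BMAL1, differed by 0.57 and −1.01. CSNK1A1, a casein kinase gene, differed by 0.23 and −0.93. Without scaling, the CAN difference of CSNK1A1 was 0.09, within its spot error of 0.20. WEE1, the kinase that delays entry into mitosis, differed by −1.26 and 0.67. Its OA difference was 0.55, short of the call, with each array scaled to its median. With 1 array per group, none of these differences between the compounds was tested.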

How the results depend on the processing

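Without scaling between arrays, the clock gene medians became −0.10 under CAN, 0.17 under OA and −0.032 for OA against CAN, 5 clock genes were higher under OA, and the pathway medians became −0.10, 0.24 and 0.27 with 10 pathway genes higher and 5 lower under OA than under CAN. That setting moved the median of all genes to −0.30 under CAN, 0.26 under OA and 0.52 in the direct comparison, so these shifts follow from its construction. Scaling to the array median gave −0.58 for the clock genes and −0.28 for the pathway genes in the direct comparison. The pathway median under CAN was 0.18 with quantile normalization and 0.19 with the deposited table, and the direct clock gene median was −0.27 with normexp background correction. Requiring a signal well above background on all 3 arrays removed NR1D2 and gave clock gene medians of 0.49, 0.33 and −0.041 and a pathway median of 0.12 under OA. At 2-fold, 6 pathway genes were higher and 6 lower under OA, and 2 were higher and 5 lower in the direct comparison. Of the clock gene calls against control, those of CLOCK, at 0.68, and NR1D1, at −0.81, under CAN were short of 2-fold. With the median over a gene's probes, PER2 reversed in the direct comparison to 0.24, and the clock gene median became 0.10. The dimmest compared probe of each gene, an alternative chosen after the data were seen, left 2 clock genes higher under CAN and 1 under OA, with medians of −0.59 under CAN and 0.19 in the direct comparison. It reversed CLOCK (−0.10), PER2 (−0.75), CREM (−0.13) and CRTC1 (−0.55) under CAN, and PER2 (1.29), CREM (0.70) and CRTC1 (0.28) in the direct comparison. Where no construction is named, the cause was not tested. No paired analysis was possible because each group had 1 array. Signals near the lowest measurable one limit CLOCK, PER2, NR1D2, RORA, BTRC, CIART, TEF, USP2 and NOCT, and DBP under CAN.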

Other observations

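Several pathway genes had probes that disagreed, and their values are given here without a call on the gene. CREM, whose gene also encodes the early repressor ICER, gave 503 units in control, 2177 under CAN and 1060 under OA on the probe with the higher mean signal, 4.77-fold and 1.77-fold higher. Its other probe, the brighter in control and under OA, gave 789, 656 and 1397 units and differed by −0.13 under CAN and 0.57 under OA. CRTC1, a CREB coactivator, gave 294, 770 and 380 units on the probe with the higher mean, 2.88-fold higher under CAN, and 505, 314 and 499 units on its other probe, with a CAN difference of −0.55. NAMPT, which makes a precursor of NAD, gave 908, 627 and 893 units on the probe with the higher mean and 843, 169 and 980 on the other. That other probe was 4.54-fold lower under CAN and differed by −0.04 under OA. USP2, a deubiquitinase of clock proteins, was within 1.5-fold on the probe with the higher mean. Its other probe was at least 3.29-fold higher under CAN and at least 1.84-fold higher under OA. That other probe was not well above background in control, at 30.9 units, and was at 1.32 times the lowest measurable signal under OA.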
